A study of Homo sapiens with 2 samples.

Results

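The genes described here are 38 genes of the Hippo pathway, in 2 groups: 22 regulators that act upstream of the cofactors YAP and TAZ, and 16 genes known as transcriptional targets of YAP, TAZ and the TEAD factors. They were taken by name, as all 66 array probes that the platform annotation assigns to them, out of 30113 probes with 1 gene symbol for 20046 genes. Total RNA came from SNU216 cells, a long-established gastric cancer line of human origin, and was read out on Illumina BeadChip arrays as biotin-labelled cRNA. There was 1 array of a TEAD4 knockdown line and 1 array of a control line made with a non-silencing short hairpin RNA (shRNA). How many hairpins were used, when the cells were harvested and whether each line is 1 clone is not stated in the labels. With 1 array per line there is no replicate, no test was made, and every difference below compares these 2 arrays.

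In the Hippo pathway, the kinases encoded by STK3 (MST2) and STK4 (MST1) with the scaffold SAV1 activate the kinases LATS1 and LATS2, which work with MOB1 proteins. LATS kinases phosphorylate YAP and TAZ and hold them in the cytoplasm. Unphosphorylated YAP and TAZ enter the nucleus and bind TEAD1 to TEAD4, which supply the DNA binding that YAP and TAZ lack. Several targets, among them LATS2, AMOTL2 and PTPN14, are regulators of the pathway themselves and are counted with the regulators here.

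TEAD4 itself had a normalized log2 signal of 7.55 on the knockdown array, against 10.11 on the control array, by its brightest probe, a difference of -2.56. It ranked 2 from the lowest among the 10717 genes detected on both arrays. For a dimmer TEAD4 probe, detected only in the control, the knockdown signal was at least 1.17-fold lower, and a remaining probe passed detection on neither array. The transcripts of the other TEAD factors and of the cofactors differed less, by -0.23 for TEAD1, 0.05 for TEAD2, -0.35 for TEAD3, -0.15 for YAP1 and -0.13 for WWTR1, which encodes TAZ. With the 4 VGLL cofactors, whose products also bind TEAD factors, these core genes, TEAD4 included, had a median of -0.26 over 10 genes. Of the 10, 8 were below 0. VGLL2 was at least 1.10-fold higher, detected in the knockdown only, and the other VGLL genes were below 0. Detection required a detection p below 0.01, and 39.4% of all probes were detected on the knockdown array, against 40.0% on the control array. Differences are knockdown minus control on the log2 scale throughout, and a gene is given by its brightest probe unless another is named. Probes differ in their response, so a signal is compared between arrays and never between genes.

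Neither group of members was lower in the knockdown as a group, and the median of each lay near that of all genes. The 19 detected regulators had a median log2 difference of -0.04 and a range of -0.76 to 0.52, with 9 above 0 and 10 below. All 16 targets were detected on both arrays, with a median of -0.02 and a range of -1.38 to 0.82, 8 above 0 and 8 below. Over all 11720 genes detected on at least 1 array the median was -0.035. By its measured normalized signals, a gene was called when it was 1.5-fold or more apart and detected on the brighter array. So called were 3 regulators (STK3, FAT4 and DCHS1) and 2 targets (RBMS3 and NT5E). These 5 are 14.3% of the 35 detected members, against 16.4% of all detected genes. Of the 35, 4 were lower by that much and 1 was higher, where 9.20% of all detected genes were lower and 7.24% higher. RBMS3 alone was past 2-fold, and lower, where 4.15% of all detected genes were past 2-fold, 2.34% lower and 1.81% higher. FAT4 and DCHS1 were detected on 1 array and entered the count through it, and for them the data give only a lower bound under 1.5-fold. With such genes at their bounds, a setting chosen after seeing the data, STK3, RBMS3 and NT5E remained (8.57% of the 35, against 13.3% of all detected genes). In neither count was the share of members above that of the whole table.

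**Figure D1:**
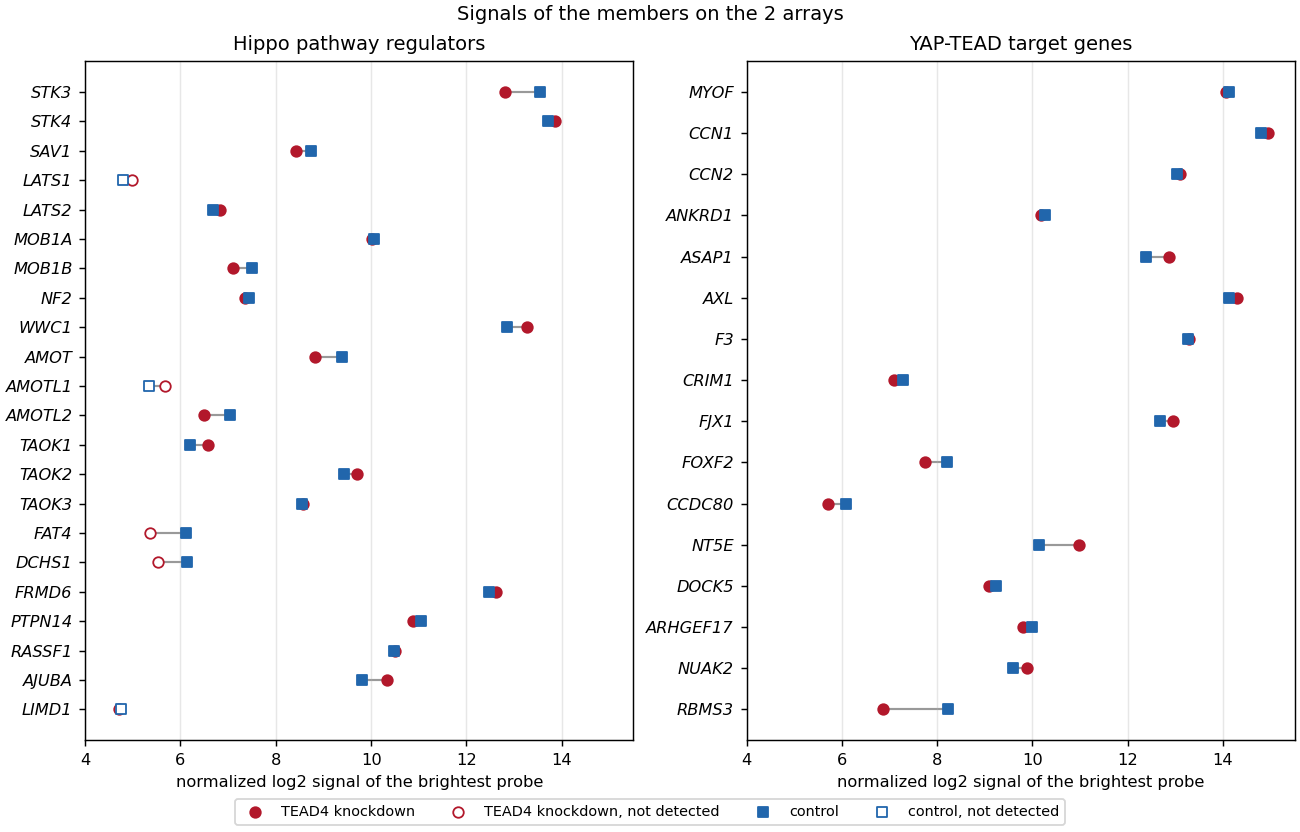
Normalized log2 signal (horizontal axis) of the brightest probe of each of the 22 regulators (left) and 16 targets (right) on the TEAD4 knockdown array (red circles) and the control array (blue squares); open symbols mark a signal that was not detected and grey lines join the 2 arrays. Most pairs lie close together, and the widest gaps are those of RBMS3, NT5E, FAT4 and STK3.

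The one measure of error these arrays offer is the spread between probes of 1 gene. In the 2497 genes for which several probes passed detection on both arrays, the log2 difference varied by 0.31 per probe (standard deviation, SD), or 0.25 for brighter genes and 0.36 for dimmer ones. Probes on 1 array see the same RNA and hybridization, and the SD therefore misses variation between cultures. Within 0.31 of no difference were 19 of the 35 detected members (54.3%), against 59.0% of all detected genes. Dim probes differed more often: 29.4% of genes in the dimmest of 4 equal groups by signal were past 1.5-fold, and 4.78% in the brightest. The shares given for the members and for other lists were set against all detected genes, not against genes of like signal.

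Among the core kinases and their partners, STK3 was the one past 1.5-fold. STK3, the kinase MST2, had a normalized log2 signal of 12.80 in the knockdown, against 13.54 in the control (-0.73, 1.66-fold lower), and a deposited signal of 6892 in the knockdown and 12177 in the control. It has 1 probe, with no other to set beside it, lies in the brightest of the 4 groups by signal, where 80 of 2930 genes were at least 1.5-fold lower, and ranked 462 from the lowest. Its paralog STK4, the kinase MST1, had 13.86 in the knockdown and 13.72 in the control (0.14). The scaffold SAV1, which joins these kinases to LATS, had 8.42 in the knockdown, against 8.73 in the control (-0.32). The differences of these 3 transcripts had no common sign.

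LATS2, the downstream kinase, had 6.82 in the knockdown and 6.67 in the control (0.15). Neither LATS1 probe was detected on either array, so LATS1 has no measured difference here. MOB1A, a coactivator of the LATS kinases, had 10.01 in the knockdown and 10.05 in the control (-0.04), and another probe of it differed by 0.13. Its paralog MOB1B had 7.10 in the knockdown, against 7.50 in the control (-0.40). The kinases TAOK1, TAOK2 and TAOK3, which phosphorylate MST kinases, differed by 0.37, 0.28 and 0.02. For TAOK2 a dimmer probe detected on both arrays went the other way (-0.24), and another, detected only in the control, was at least 1.04-fold lower, so its direction depends on the probe.

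Of the regulators NF2, WWC1 and FRMD6, WWC1 alone differed by more than the SD per probe by its brightest probe. NF2, which encodes the membrane-linked tumour suppressor merlin, had 7.36 in the knockdown and 7.44 in the control (-0.08), with its other 3 probes detected on neither array. WWC1, the scaffold KIBRA that works with merlin, had 13.27 in the knockdown, against 12.85 in the control (0.42). FRMD6, a FERM-domain protein placed with these scaffolds, differed by 0.15 by its brightest probe and by 0.40 by another detected on both arrays. Its remaining probe, detected only in the knockdown, was at least 1.17-fold higher.

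The angiomotins are scaffolds of cell junctions that bind YAP. AMOT had 8.83 in the knockdown, against 9.39 in the control (-0.56), and AMOTL2 had 6.50 in the knockdown, against 7.03 in the control (-0.53). Both lie just short of 1.5-fold, a log2 difference of 0.585. AMOT passed that line with equal medians in place of quantile normalization (-0.64), and AMOTL2 with neither background correction nor offset (-0.62). AMOTL1 was detected on neither array. PTPN14, a phosphatase that binds YAP, differed by -0.16, with a dimmer probe at -0.02. RASSF1, a scaffold that binds MST kinases, differed by 0.02 and 0.04 by its 2 detected probes.

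AJUBA and LIMD1 are LIM-domain proteins that restrain LATS kinases. AJUBA had 10.33 in the knockdown, against 9.82 in the control (0.52, 1.43-fold higher), the highest of the regulators, and its other 2 probes were detected on neither array. LIMD1 was detected on neither array.

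The atypical cadherins FAT4 and DCHS1, which bind each other across cells, passed detection only in the control. FAT4 had a signal of 5.35 in the knockdown, not well above background (detection p 0.0598), against 6.12 in the control, a fold of at least 1.33 lower. Its other probe was detected on neither array, at 4.84 in the knockdown and 5.49 in the control. DCHS1, with 1 probe, had 5.54 in the knockdown (detection p 0.0293), against 6.14 in the control, and was at least 1.36-fold lower. A fold bound sets the brighter signal against the higher of the dim signal and the lowest detected signal of that array. Both genes passed the detection filter only through the control array, and the call of both ended with an offset of 50 (-0.47 for FAT4 and -0.38 for DCHS1) and in the authors' normalized table (-0.34 and -0.27).

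**Figure D2:**
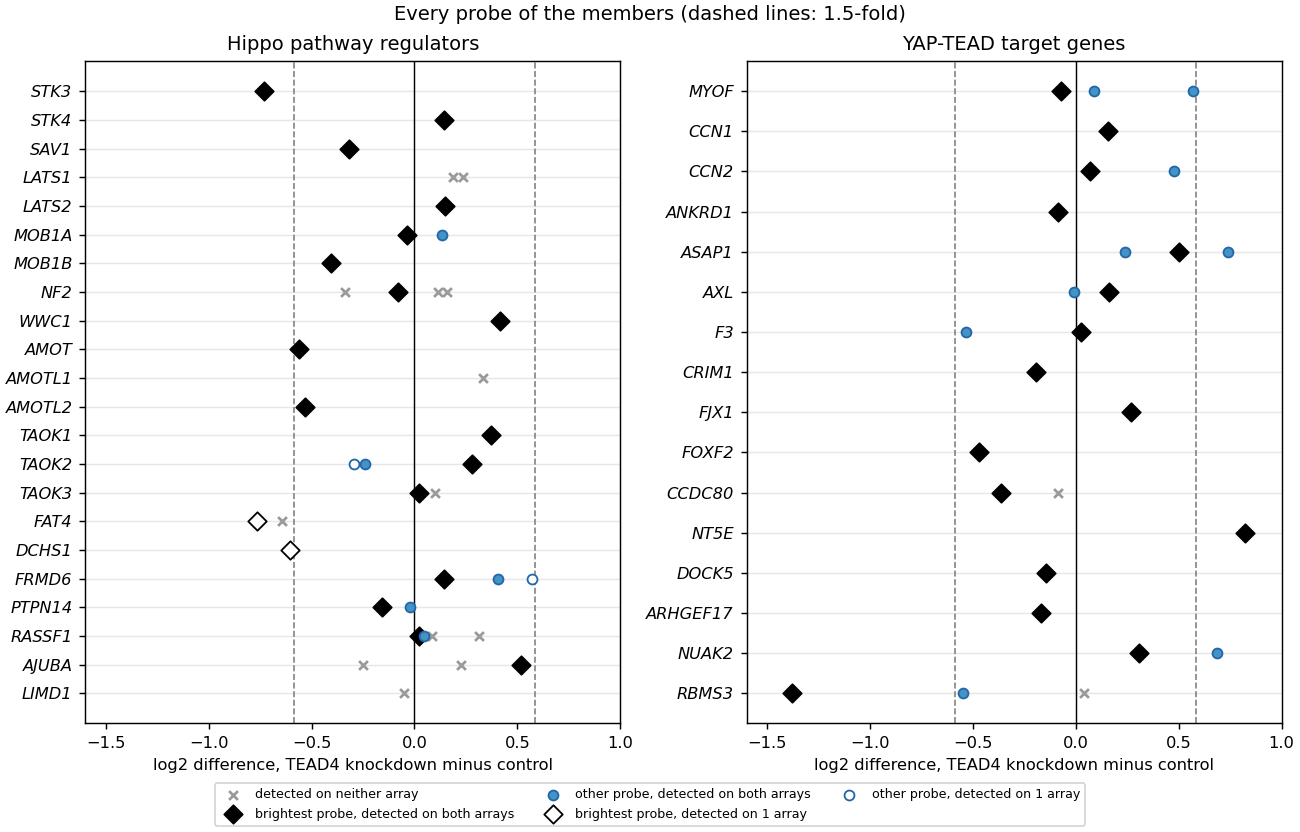
Log2 difference, TEAD4 knockdown minus control (horizontal axis), for all 66 probes of the regulators (left) and targets (right). Diamonds are the brightest probe of a gene, circles its other probes, filled where detected on both arrays and open where detected on 1, and crosses are probes detected on neither; dashed lines mark 1.5-fold. STK3 and NT5E have a single probe past the line, while the 2 detected RBMS3 probes lie at -1.38 and -0.55.

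The usual readouts of YAP and TEAD activity were near equal on the 2 arrays. CCN1, a secreted matricellular protein, had 14.94 in the knockdown and 14.78 in the control (0.16). CCN2, its relative, had 13.11 in the knockdown and 13.04 in the control (0.07), and another CCN2 probe had 12.23 in the knockdown, against 11.75 in the control (0.48). ANKRD1, an ankyrin repeat protein of the nucleus and the sarcomere, had 10.19 in the knockdown and 10.27 in the control (-0.09). AXL, the receptor tyrosine kinase for GAS6, had 14.29 in the knockdown and 14.13 in the control (0.16), with another probe at -0.01. None of these 4 genes was lower by as much as the SD per probe by any of its detected probes. TEAD4 was 5.89-fold lower on the same array.

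The promoters of 2 of these readouts hold repeated copies of the core of the MCAT element, the sequence that TEAD factors bind, and are shown for that reason beside that of NUAK2, which holds 2 copies, and those of RBMS3 and NT5E, the called targets, which hold none. CCN1 was not searched. Windows from RefSeq run from 250 bases before to 50 bases after the annotated start, on the strand of the gene, and capitals mark GGAATG or its reverse complement CATTCC.
CCN2 (GRCh38.p14, chr6:131951323-131951622, minus strand): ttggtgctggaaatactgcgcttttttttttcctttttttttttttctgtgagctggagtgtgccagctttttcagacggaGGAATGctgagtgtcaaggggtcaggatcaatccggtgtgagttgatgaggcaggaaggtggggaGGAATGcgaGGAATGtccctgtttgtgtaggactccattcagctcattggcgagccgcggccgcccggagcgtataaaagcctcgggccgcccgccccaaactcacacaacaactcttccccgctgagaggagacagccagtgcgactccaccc
ANKRD1 (GRCh38.p14, chr10:90921038-90921337, minus strand): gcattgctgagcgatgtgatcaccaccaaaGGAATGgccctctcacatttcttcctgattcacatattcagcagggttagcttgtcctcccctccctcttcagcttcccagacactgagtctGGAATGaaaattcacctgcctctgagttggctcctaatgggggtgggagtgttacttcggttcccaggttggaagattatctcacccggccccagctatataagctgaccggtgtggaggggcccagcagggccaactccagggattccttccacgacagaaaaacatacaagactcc
NUAK2 (GRCh38.p14, chr1:205321696-205321995, minus strand): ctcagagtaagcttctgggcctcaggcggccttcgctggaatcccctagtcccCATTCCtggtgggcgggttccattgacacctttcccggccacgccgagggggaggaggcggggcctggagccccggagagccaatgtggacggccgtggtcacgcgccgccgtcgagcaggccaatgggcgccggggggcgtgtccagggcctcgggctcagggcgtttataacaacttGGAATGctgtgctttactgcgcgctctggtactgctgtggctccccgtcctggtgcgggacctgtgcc
RBMS3 (GRCh38.p14, chr3:29280821-29281120, plus strand): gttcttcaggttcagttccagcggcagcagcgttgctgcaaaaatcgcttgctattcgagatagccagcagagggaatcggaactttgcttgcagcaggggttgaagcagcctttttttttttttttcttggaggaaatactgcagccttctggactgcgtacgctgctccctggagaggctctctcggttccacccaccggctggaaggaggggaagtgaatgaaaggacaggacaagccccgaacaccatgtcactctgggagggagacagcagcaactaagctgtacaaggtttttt
NT5E (GRCh38.p14, chr6:85449833-85450132, plus strand): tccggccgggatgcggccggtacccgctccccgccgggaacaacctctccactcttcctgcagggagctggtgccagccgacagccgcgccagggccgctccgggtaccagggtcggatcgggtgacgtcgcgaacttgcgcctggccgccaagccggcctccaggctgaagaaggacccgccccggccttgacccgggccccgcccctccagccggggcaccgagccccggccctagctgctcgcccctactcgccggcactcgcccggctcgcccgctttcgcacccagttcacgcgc

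In CCN2 the 3 copies start 169, 104 and 95 bases before the start, and in ANKRD1 the 2 copies start 220 and 128 bases before it. NUAK2 has CATTCC 197 bases and GGAATG 18 bases before its start. Searching both strands, 5 of the 11 target genes with a window (45.5%) held at least 1 match, CCN2, ANKRD1, NUAK2, AXL and FOXF2. Of the 18 regulator genes with a window, 6 (33.3%) did, AJUBA, AMOTL2, LATS2, PTPN14, RASSF1 and TAOK3. Over all 27305 genes with a window the share was 16.7%, and 1.70% held at least 2. Some genes have several windows, and a gene was counted when any of them matched. The 11 members with a match had differences from -0.53 (AMOTL2) to 0.52 (AJUBA) by their brightest probes. None of these was past 1.5-fold, against 16.4% of all detected genes, but a dimmer NUAK2 probe detected on both arrays was (0.69). The share past 1.5-fold among all genes with a match is not given here. The called regulators STK3, FAT4 and DCHS1 had no window and were not searched. A match of these letters is a description and does not show a bound site.

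RBMS3, an RNA-binding protein of single-stranded nucleic acids, was the lowest of all 35 detected members. It had a normalized log2 signal of 6.85 in the knockdown, against 8.23 in the control (-1.38, 2.60-fold lower), and a deposited signal of 98.1 in the knockdown and 294 in the control. It ranked 71 from the lowest among genes detected on both arrays. Another probe had 6.68 in the knockdown, against 7.23 in the control (-0.55), and the last was detected on neither array. In the authors' normalized table the brightest probe differed by -0.996, just short of 2-fold. Over all alternatives the value for RBMS3 lay between -1.51 and -0.97, and -0.97 is the mean of its detected probes.

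NT5E, the ectonucleotidase CD73 that forms adenosine outside the cell, was the highest target. Its only probe had 10.97 in the knockdown, against 10.15 in the control (0.82, 1.77-fold higher), with a deposited signal of 1916 in the knockdown and 1160 in the control, and it ranked 298 from the highest. Its value lay between 0.74 and 0.83 under other processing.

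Of the signalling and cytoskeletal targets, ASAP1, NUAK2 and FJX1 were higher in the knockdown by less than 1.5-fold by their brightest probes, and DOCK5 and ARHGEF17 were slightly lower. ASAP1, a GTPase-activating protein for ARF proteins, had 12.87 in the knockdown, against 12.37 in the control (0.50), and its other probes differed by 0.74 and 0.24, so that 1 of 3 probes was past 1.5-fold. NUAK2, a kinase related to AMPK, had 9.89 in the knockdown, against 9.58 in the control (0.31), and its dimmer probe had 8.67 in the knockdown, against 7.98 in the control (0.69). FJX1, the human relative of Drosophila four-jointed, a kinase that modifies Fat and Dachsous cadherins in the fly, differed by 0.27. DOCK5, an exchange factor for RAC proteins, differed by -0.15, and ARHGEF17 differed by -0.17.

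Of the remaining targets MYOF, F3, CRIM1, FOXF2 and CCDC80, F3 alone was above 0 by its brightest probe. The detected probes of MYOF and of F3 pointed both ways. MYOF, the membrane repair protein myoferlin, differed by -0.07 by its brightest probe, by 0.09 by the next and by 0.57 by the dimmest, with all 3 detected on both arrays. F3, tissue factor, the starter of coagulation, differed by 0.03 by its brightest probe, while its other probe had 11.41 in the knockdown, against 11.95 in the control (-0.53). CRIM1, a transmembrane protein that binds BMP ligands, differed by -0.19. FOXF2, a forkhead transcription factor, had 7.74 in the knockdown, against 8.21 in the control (-0.47). CCDC80, a secreted matrix protein, had 5.72 in the knockdown, against 6.08 in the control (-0.36), close to the limit of detection on the knockdown array.

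Among the members 12 had at least 2 probes detected on both arrays, and the probes pointed one way in 7 and different ways in 5 (MOB1A, TAOK2, MYOF, AXL and F3). The widest gap between such probes was 0.83, in RBMS3, and the narrowest 0.03, in RASSF1. STK3, NT5E and DCHS1 rest on 1 probe each. Even a bright probe can stand apart: ACTB, picked out after its values were seen, differed by -0.03 and -0.15 by its brighter probes, while its dimmest had 14.35 in the knockdown, against 13.54 in the control (0.81). Of 10 commonly used reference genes, none was past 1.5-fold by its brightest probe, and their median was -0.02.

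**Figure D3:**
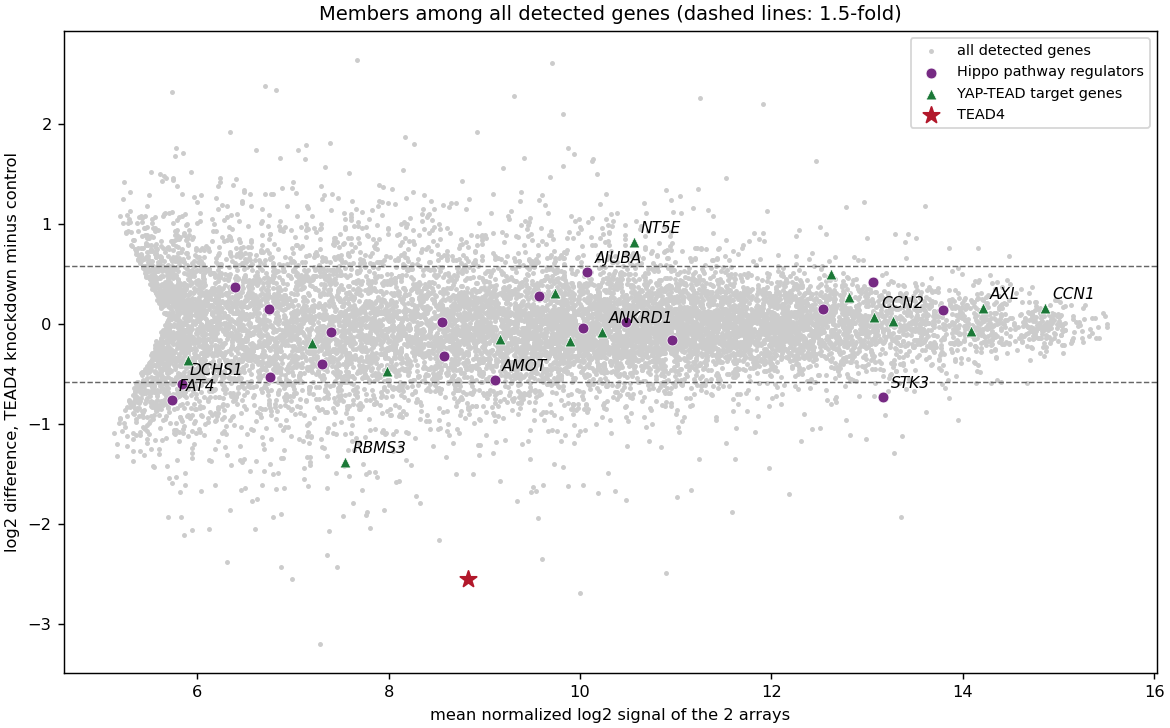
Log2 difference, TEAD4 knockdown minus control, against the mean normalized log2 signal of the 2 arrays, for all 11720 detected genes (grey), the regulators (purple circles), the targets (green triangles) and TEAD4 (red star); dashed lines mark 1.5-fold. The grey cloud is wider at low signal, where FAT4 and DCHS1 lie, than at high signal, where STK3 lies.

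The comparison was widened to 54 further Hippo pathway genes with a probe, among them MOB and RASSF relatives and polarity genes. By measured signals, 7.24% of all detected genes were called higher and 9.20% lower. Of the 43 further genes detected, 0 were called higher and 4 lower (9.30%, against 16.4% of all detected genes). The 43 had a median of -0.10 (-0.07 with genes detected on 1 array at their bounds). The 4 were MOB3B, a relative of MOB1 (8.19 in the knockdown, against 9.28 in the control), RASSF5, a scaffold that binds MST1 (10.28 in the knockdown, against 10.97 in the control), RASSF4 (at least 1.69-fold lower) and MARK4, a polarity kinase (at least 1.05-fold lower). MOB3B differed by -1.09 and RASSF5 by -0.68. RASSF4 and MARK4 passed detection only in the control, and MARK4 was not past 1.5-fold at its bound, which left 3 called (6.98%, against 13.3% of all detected genes). Both calls ended in the authors' normalized table (-0.52 and -0.39), that of MARK4 also with an offset of 50 (-0.46).

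Other genes reported as YAP or TEAD targets differed in both directions. By measured signals, of 31 detected among 37 with a probe, 4 were called higher and 7 lower (35.5%, against 16.4% of all detected genes), with a median of -0.18 (-0.11 with bounds). Lower were WNT5A, a secreted Wnt ligand (-2.35), CAVIN2, a coat protein of caveolae (-1.61), the keratin KRT34 (-1.05), the secreted follistatin-like protein FSTL1 (-0.87), the stress gene GADD45B (-0.81), the growth factor FGF1 (at least 1.03-fold lower) and IGFBP3, which binds insulin-like growth factors (-0.60). Higher were the integrin chain ITGB2 (1.01), the stress-induced IER3 (0.90), the intermediate filament VIM (0.69) and EREG, a ligand of the EGF receptor (0.68). FGF1 was not past 1.5-fold at its bound, which left 10 called (32.3%, against 13.3% of all detected genes). This list was drawn up with WNT5A, GADD45B and VIM already known to differ on these arrays, so its share supports nothing about the pathway. The calls of KRT34, FGF1 and IGFBP3 ended in the authors' normalized table (-0.58, -0.38 and -0.58), and that of FGF1 also with an offset of 50 (-0.45). A dimmer IGFBP3 probe, detected on both arrays, differed by -0.85, and by -0.83 in the authors' normalized table.

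Markers were checked for the epithelial label and for other cell types. Of 8 epithelial markers 7 were detected on both arrays, with EPCAM at 14.33 in the knockdown and 14.52 in the control, and CDH1, which encodes E-cadherin, at a difference of 0.66. KRT18 was detected on neither array. The summed normalized signal of the 8 was 96357 in the knockdown and 97442 in the control. Of 10 fibroblast markers 6 were detected, FBLN1 (-1.80), LUM (at least 2.41-fold lower) and DCN (at least 1.21-fold lower) being lower and COL6A3 (at least 1.14-fold) higher. The other 2 detected, COL1A1 and COL1A2, lay within the SD per probe of no difference, on opposite sides of 0. COL3A1, PDGFRA, PDGFRB and THY1 were detected on neither array. The summed normalized signal of the 10 fibroblast genes was 538 in the knockdown and 1079 in the control. FBLN1 and LUM made up nearly all of that gap, since the other 8 genes summed to 335 in the knockdown and 353 in the control. The part of fibroblast markers in the members' differences was not tested. The summed signal of 8 leukocyte genes was 2227 in the knockdown and 1290 in the control, with CD68, a lysosomal protein also made outside leukocytes, at 1.10, MS4A1 at least 1.04-fold higher and ITGAM at -0.63. Of the 4 detected leukocyte genes 2 were above 0 and 2 below, with a median of 0.315 (-0.05 with MS4A1 at its bound). LYZ, the remaining one, was below 0 by less than the SD per probe. PTPRC, CD3D, CD3E and CD14 were detected on neither array. Of 6 endothelial genes ESAM alone was detected (-0.85), and their summed signal was 253 in the knockdown and 365 in the control. All these sums include the genes not detected, whose signals near background also carry the offset of 16. In a bulk sample, fewer cells of a type and less RNA per cell cannot be told apart. With a single array for each line, effects of culture, handling or array and of the knockdown cannot be told apart.

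**Figure D4:**
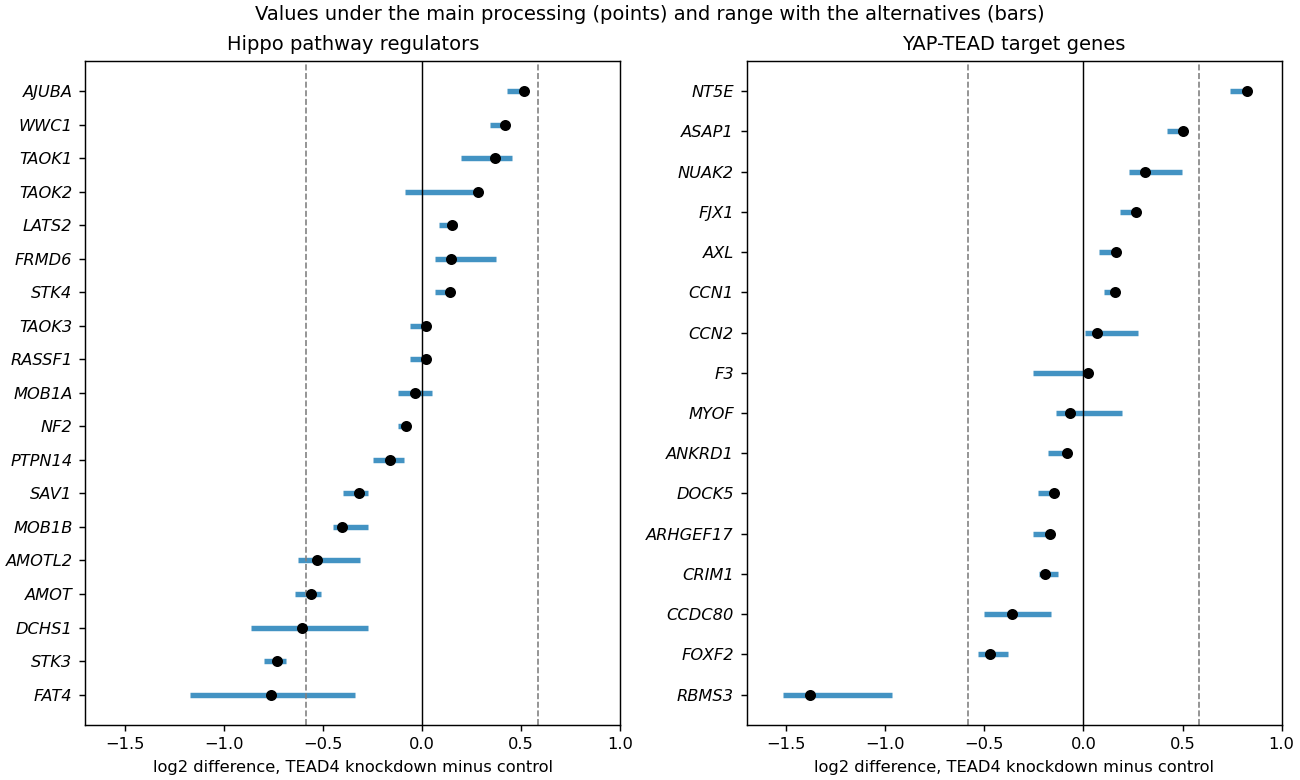
Log2 difference, TEAD4 knockdown minus control (horizontal axis), of the 19 detected regulators (left) and 16 targets (right), ordered by value. Points give the main processing, bars span it together with up to 9 alternatives, and dashed lines mark 1.5-fold; STK3, NT5E and RBMS3 stay past the line throughout, while the bars of FAT4, DCHS1, AMOT and AMOTL2 cross it.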

How the data were processed

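The deposited non-normalized table holds intensity values on a linear scale, already background-subtracted, since 12895 of 47323 probes on the knockdown array and 12861 on the control array are below 0. Detection p-values are deposited beside them, per the file headers. The authors also deposited quantile normalized intensity values, uncentred and with medians of 118.7 for both arrays, whose normalization target is unknown. Scanner software and background method are not stated in the labels. Signals were corrected with neqc of limma 3.58.1 in R 4.3.3 (normal-exponential background from the detection p-values, offset of 16, quantile normalization, log2); the offset pulls dim differences towards 0. Of the 30113 probes with 1 symbol, 30074 matched RefSeq by Entrez identifier. A gene was called when it was at least 1.5-fold apart and detected on the brighter array; the code for these calls, not the calls themselves, was tested on simulated data. Members, lists and rules were chosen with earlier results of these data known. All members are named, and of the other lists those past 1.5-fold. Alternatives changed the offset, normalization, background correction, detection filter and probe rule. The number of arrays limits the precision. A planned search of protein sequences was not run.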

Additional observations from a re-analysis of the deposited data

How the results depend on the processing

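Of 45 recomputed values for the medians and counts of both member groups and the count over the whole table, 40 stayed within tolerance (1.5 times for counts; for medians, the standard error that the SD per probe gives). The other 5 were counts of calls. The count of regulators was 3, and 1 with an offset of 50, in the deposited normalized table or with genes detected on both arrays, STK3 remaining in each. It was also 1 with genes detected on 1 array at their fold bounds, added after seeing the data, where the table had 1559. That of all detected genes was 1926, and 1260 with an offset of 50 or 978 in the deposited table. The target count was 2 under all 9 alternatives. The median of the regulators ranged from -0.12 to 0.02, changing sign with genes detected on both arrays, and that of the targets from -0.09 to -0.004. No called member changed sign. STK3, NT5E and RBMS3 kept their calls under all 9 alternatives, and FAT4 and DCHS1 under 6 of the 8 that gave them a value. With 1 array per line no paired analysis was possible, and no replicate could be left out either. Signal near background limits FAT4, DCHS1 and CCDC80 and leaves LATS1, AMOTL1 and LIMD1 without a value.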
